A study of Mus musculus with 30 samples.

Results

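Astrocytes are the glial cells that take up glutamate and potassium around synapses, couple to each other through gap junctions, wrap blood vessels with their endfeet and supply neurons with lactate and lipids. They arise from radial glia, multiply around birth and take on their adult set of transporters, channels and enzymes during the first postnatal weeks, while genes of the immature state, such as the lipid carrier gene Fabp7, are turned down. The 34 genes described here are known markers of this cell type, chosen by name, and all 34 were found among the 19737 genes of the expression table. They comprise 5 genes of water and ion transport and endfoot adhesion, 6 of glutamate and amino acid handling, 2 of gap junctions, 7 of metabolism, 6 of lipid carriers and secreted proteins, 6 receptor and transcription factor genes and 2 of the cytoskeleton and calcium binding. The lowest mean of any of them over the 30 libraries was 582 normalized read counts, so all 34 passed the filter on low values, and none was at 0 in any library.

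RNA-seq had been performed on the whole brain of male C57BL/6N mice, WT or heterozygous for Arid1b (Arid1b+/–, HT), which carried a protein-truncating mutation on one allele in all cells. ARID1B is a subunit of the BAF chromatin remodeling complex. There were 6 groups of 5 libraries. WT-P10 and HT-P10 were untreated pups at postnatal day 10. WT-Veh, HT-Veh, WT-Flx and HT-Flx were adults at postnatal day 120 whose dams had drunk 0.2% saccharin alone (Veh) or 0.1 mg/ml fluoxetine, a serotonin reuptake inhibitor, in 0.2% saccharin (Flx) from day 3 to day 21, so that the pups received the drug through milk. The P120 mice thus differed from the P10 mice in age and in the saccharin given to the dams. These, and any difference in library preparation, which the labels do not give, cannot be told apart. Since the tissue was whole brain, fewer astrocytes and less RNA per astrocyte cannot be told apart either.

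The labels were checked on Arid1b itself. Its level was 3164 to 3309 normalized counts in WT-P10 and 2162 to 2334 in HT-P10, but the library labelled WT-Veh 2 had 2320.4, within the range of the HT libraries, and the library labelled HT-Veh 2 had 3361, within that of the WT libraries. Both were kept under their labels, left out of the main comparison of HT-Veh with WT-Veh, and left out of the other comparisons that use them as an alternative. The sum of all normalized counts was 31578614 to 32445810.0 in WT-P10, 32054350.0 to 32402678 in HT-P10, 33424948 to 35542279 in WT-Veh, 33200684 to 41801037 in HT-Veh, 32484635 to 33588499 in WT-Flx and 37083545 to 41522113 in HT-Flx. The number of reads behind these values is unknown, since the deposited counts had already been scaled.

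Promoters of a few astrocyte genes are printed first, to show the sequence at their starts. RefSeq promoters (GRCm38.p6, 250 bases before to 50 after a start) were matched for 29 of the 34 genes, giving 38 sequences, and Atp1b2, Sparcl1, Clu, Sox9 and Aqp4 had no entry. Shown are Fabp7 (chr10:57784673-57784972, plus strand), which was lower at P120 by the most, Gjb6 (chr14:57133562-57133861, minus strand) and both starts of Aldoc (chr11:78322823-78323122 and chr11:78323948-78324247, plus strand), which were higher by the most in WT mice, and Gfap (chr11:102897151-102897450, minus strand), the classic astrocyte filament gene. Capitals mark matches to any of 6 searched motifs on either strand.
Fabp7: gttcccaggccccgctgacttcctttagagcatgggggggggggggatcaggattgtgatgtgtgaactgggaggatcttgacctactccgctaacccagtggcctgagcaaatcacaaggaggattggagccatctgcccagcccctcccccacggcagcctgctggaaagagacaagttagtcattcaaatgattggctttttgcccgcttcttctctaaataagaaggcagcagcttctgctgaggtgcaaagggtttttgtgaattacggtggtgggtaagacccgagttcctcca
Gjb6: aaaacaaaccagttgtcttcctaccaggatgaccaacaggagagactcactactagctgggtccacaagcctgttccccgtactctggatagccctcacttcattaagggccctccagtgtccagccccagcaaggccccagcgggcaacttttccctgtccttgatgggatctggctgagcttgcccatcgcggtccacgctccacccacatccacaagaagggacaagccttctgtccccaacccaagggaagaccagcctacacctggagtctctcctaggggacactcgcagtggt
Aldoc first start: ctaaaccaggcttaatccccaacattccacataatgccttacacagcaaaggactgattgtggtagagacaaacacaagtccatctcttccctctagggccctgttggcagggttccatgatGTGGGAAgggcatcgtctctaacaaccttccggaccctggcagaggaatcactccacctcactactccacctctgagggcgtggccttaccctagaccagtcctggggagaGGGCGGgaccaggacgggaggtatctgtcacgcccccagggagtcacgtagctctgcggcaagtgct
Aldoc second start: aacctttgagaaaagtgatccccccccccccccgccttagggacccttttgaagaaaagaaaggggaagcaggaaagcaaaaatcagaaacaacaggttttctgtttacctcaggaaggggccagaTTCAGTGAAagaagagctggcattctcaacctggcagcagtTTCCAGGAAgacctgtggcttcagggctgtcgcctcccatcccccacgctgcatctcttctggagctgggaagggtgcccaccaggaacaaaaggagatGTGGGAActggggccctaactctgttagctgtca
Gfap: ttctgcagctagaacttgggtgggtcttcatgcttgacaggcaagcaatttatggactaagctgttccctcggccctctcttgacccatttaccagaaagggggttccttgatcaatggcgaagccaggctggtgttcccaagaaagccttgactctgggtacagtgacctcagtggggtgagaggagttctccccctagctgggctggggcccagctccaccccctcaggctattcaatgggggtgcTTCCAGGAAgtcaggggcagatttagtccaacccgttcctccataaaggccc
The motifs were the STAT site TTCNNNGAA, the RBPJ site GTGGGAA, the TATA box TATAAA, the GC box GGGCGG, the SOX site ACAAAG and the NFI palindrome, and no overlap between matches of different motifs was resolved. In these windows Gfap held a STAT site, the first Aldoc start an RBPJ site and a GC box, and the second Aldoc start 2 STAT sites and an RBPJ site, while Fabp7 and Gjb6 held none of the 6. STAT sites were in 13.2% of the 38 astrocyte promoters (Acsbg1, Aldoc, Gfap, Ntsr2 and Slc1a3) and in 8.30% of all 32851 promoters. The shares were 10.5% and 6.38% for the RBPJ site, 18.4% and 13.6% for the TATA box, 47.4% and 35.7% for the GC box, and 13.2% and 18.7% for the SOX site. No astrocyte promoter held the NFI palindrome, which was in 0.0365% of all promoters.

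Astrocyte genes made up 0.954% to 1.09% of all normalized counts in the 10 P10 libraries and 1.16% to 1.46% in the 20 P120 libraries, without overlap between the ages. Per kilobase of exon, the level was highest for Apoe, the main lipid carrier gene of the brain, in all 6 groups, at 17340.4 ± 618 (SD, n = 5) normalized counts per kb in WT-P10 and 27474 ± 2969.8 in WT-Veh. In WT-P10 it was followed by Sparcl1, which encodes the secreted synapse organizer hevin (14976 ± 839 per kb), and by Glul, the glutamine synthetase gene (6423 ± 465 per kb). Fabp7 (5676 ± 784 per kb) was at place 4 of 34 in WT-P10 and in HT-P10. It was at place 31 in WT-Veh, 28 in HT-Veh and 30 in both treated groups. In WT-Veh the order at the top was Apoe, Sparcl1 (17473 ± 1765), Glul (15288 ± 905) and Aldoc (13297 ± 3180.2), and the ranges of mean ± SD of Sparcl1, Glul and Aldoc overlapped from each to the next. In HT-Flx, Glul (18684 ± 1019 per kb) and Aldoc (17622 ± 2418) had higher means than Sparcl1 (12385 ± 3197), and the ranges of Aldoc and Sparcl1 overlapped. The lowest gene in all 6 groups was Bmpr1b, a BMP receptor gene, with group means between 67.5 and 121 per kb.

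**Figure D1:**
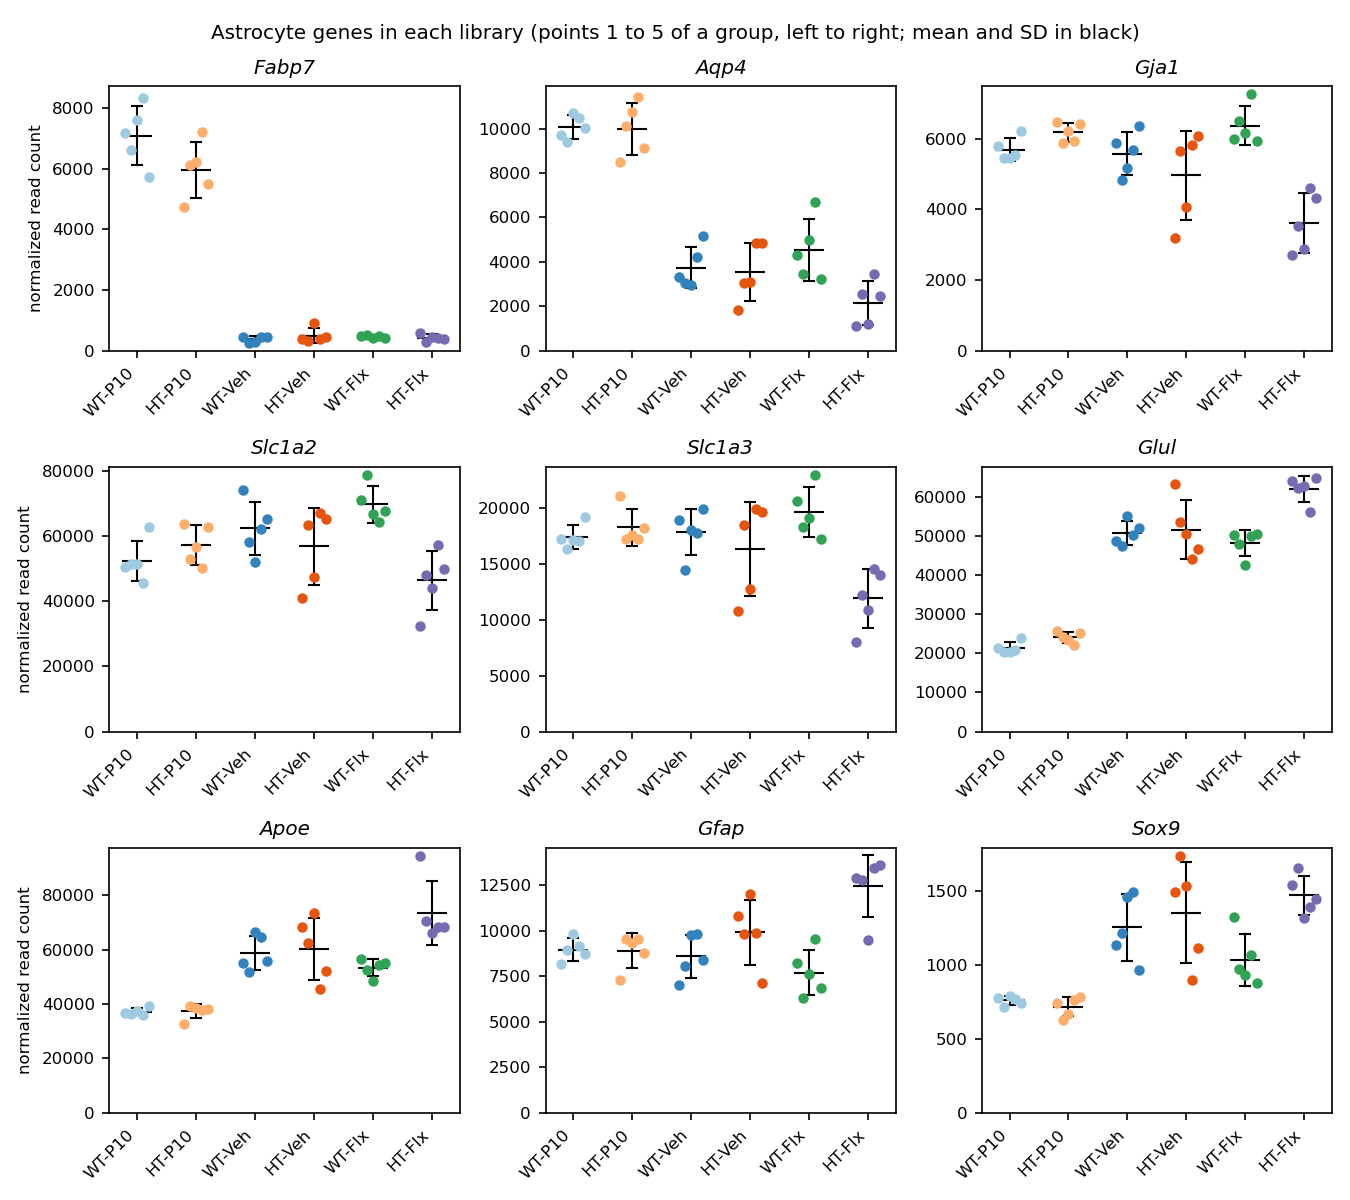
Normalized read counts of 9 astrocyte genes in all 30 libraries, by group, 5 libraries each, with the mean and SD. Aqp4 and Fabp7 are highest in both P10 groups, Glul and Apoe are higher in all 4 P120 groups than at P10, and the HT-Flx points of Gja1, Slc1a2 and Slc1a3 lie below all WT-Flx points.

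To ask how astrocyte genes differed between pup and adult brain, WT-Veh at P120 was compared with WT-P10. Of the 34 genes, 20 were higher and 3 lower at P120 (limma on log2(value + 1), adjusted p under 0.05), whereas 58.3% of all 17927 genes tested passed, 28.9% higher and 29.4% lower. The median log2 difference was 0.42 for the astrocyte genes and -0.01 for all genes. The 5 and 5 values did not overlap for 18 higher and 3 lower astrocyte genes, and for 45.6% of all genes, 22.6% higher and 23% lower. In HT mice (HT-Veh against HT-P10) 17 were higher and 3 lower, with 51.1% of all 17989 genes passing, 25.8% higher and 25.3% lower. There the values did not overlap for 14 higher and 2 lower genes, and for 40.2% of all genes, 20.4% higher and 19.8% lower. All 17 genes that rose in HT mice also rose in WT mice, in which Ppp1r3c, Plpp3 and Sparcl1 rose as well, and the 3 that fell were the same, Fabp7, Aqp4 and Tril. These comparisons share no library. Without the vehicle libraries numbered 2, 20 genes were higher and 3 lower in WT, and 16 higher and 3 lower in HT mice.

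The gene that fell by the most was Fabp7, which encodes the brain fatty acid binding protein of radial glia and immature astrocytes. It lies on chromosome 10 from 57784881 to 57788450 (GRCm38, plus strand). Its normalized counts were 7172, 6630.1, 7608, 8328 and 5739 in WT-P10 and 437, 262, 267, 445 and 433 in WT-Veh. The HT-P10 libraries had 4729.9, 6130.1, 6221, 7229.9 and 5509, and the HT-Veh libraries 392, 313, 917, 392 and 453. All adult values lay below all pup values, and HT-Veh 3 stood above the other adults. The level was 19.6-fold lower in WT (log2 difference -4.29 ± 0.17 SE, adjusted p = 1.2e-09) and 12.9-fold lower in HT mice (-3.69 ± 0.24, adjusted p = 1.5e-07). The difference between the genotypes in this change did not pass the test (0.61 ± 0.31, adjusted p = 0.88).

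Aqp4, the water channel gene of astrocyte endfeet (chromosome 18, 15389496 to 15410982, minus strand), had 9736, 9423, 10694, 10505 and 10034 normalized counts in WT-P10 and 3304, 3063, 2961, 4227 and 5149 in WT-Veh. The HT-P10 libraries had 8499, 10140.1, 10742, 11414 and 9135 and the HT-Veh libraries 1847, 3045, 3102, 4831 and 4861. Pup and adult values did not overlap in either genotype. The level was 2.75-fold lower in WT (-1.46 ± 0.13, adjusted p = 1.0e-06) and 2.98-fold lower in HT mice (-1.58 ± 0.23, adjusted p = 9.5e-05). The remaining lower gene was Tril, which encodes an accessory protein of Toll-like receptor signaling, with log2 differences of -0.55 ± 0.11 in WT (adjusted p = 0.00081) and -0.42 ± 0.11 in HT mice (adjusted p = 0.0072), where its values overlapped between the ages.

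The largest rise in WT mice was that of Gjb6, which encodes the gap junction protein connexin 30. Its counts were 548, 651, 628, 566 and 825 in WT-P10 and 2347, 1544, 1807, 2349.9 and 2785 in WT-Veh. All adult values were above all pup values, with a 3.33-fold higher level in WT (1.73 ± 0.15, adjusted p = 9.2e-07) and a 2.73-fold higher level in HT mice (1.45 ± 0.13, adjusted p = 2.4e-06). The other gap junction gene, Gja1 (connexin 43), did not pass in either genotype, with log2 differences of -0.03 ± 0.08 in WT and -0.36 ± 0.17 in HT mice. Per kilobase of exon, Gjb6 had 241 ± 41.1 and Gja1 556 ± 32.2 normalized counts in WT-P10, whereas in WT-Veh Gjb6 had 810.2 ± 184 and Gja1 544 ± 58.3.

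Of the 7 metabolic genes, 6 rose in WT and 4 in HT mice. Aldoc, the aldolase isoform gene of astrocytes, had 12102, 13373, 12779.9, 11058 and 15789.8 counts in WT-P10 and 31347, 34307, 52506, 54293 and 44493 in WT-Veh, a 3.28-fold rise (1.71 ± 0.15, adjusted p = 8.2e-07). In HT mice the rise was 3.41-fold (1.77 ± 0.15, adjusted p = 9.3e-07). Acsbg1, an acyl-CoA synthetase gene, differed by 0.92 ± 0.11 in WT and 1.1 ± 0.18 in HT mice, and Ndrg2, a marker of mature astrocytes, by 0.92 ± 0.08 and 1.08 ± 0.11. Aldh1l1, a folate enzyme gene used as a pan-astrocyte marker, lay near the threshold with 0.21 ± 0.08 in WT (adjusted p = 0.043) and 0.50 ± 0.20 in HT mice (adjusted p = 0.048). Cbs, which encodes cystathionine beta-synthase, did not pass (0.14 ± 0.10 in WT and -0.11 ± 0.14 in HT mice).

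Glutamate and amino acid handling was split, with 2 of 6 genes higher in both genotypes. Glul had 21323, 20267, 20359, 20766 and 24003 counts in WT-P10 and 48843, 47452, 55166, 50373 and 52174 in WT-Veh. The groups lay far apart, with a difference of 1.25 ± 0.07 in WT (adjusted p = 1.3e-08) and 1.09 ± 0.12 in HT mice (adjusted p = 1.0e-05). Slc25a18, a mitochondrial glutamate carrier gene, differed by 0.59 ± 0.10 in WT and 0.51 ± 0.15 in HT mice. The main plasma membrane glutamate transporter genes did not pass in either genotype. Slc1a2 (GLT-1) differed by 0.25 ± 0.10 in WT (adjusted p = 0.051) and -0.03 ± 0.15 in HT mice, and Slc1a3 (GLAST) by 0.03 ± 0.08 and -0.20 ± 0.17. Nor did the GABA transporter gene Slc6a11 (0.07 ± 0.08 in WT) or the serine transporter gene Slc7a10 (-0.07 ± 0.10 in WT).

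Among receptor and transcription factor genes, Ntsr2 (a neurotensin receptor), Fgfr3 (a fibroblast growth factor receptor), Sox9 (a glial transcription factor) and F3 (tissue factor) rose in both genotypes. Ntsr2 differed by 1.28 ± 0.10 in WT and 1.43 ± 0.20 in HT mice, and Fgfr3 by 1.22 ± 0.07 and 1.24 ± 0.20. Of the secreted group, Clu (clusterin) differed by 1.03 ± 0.08 and 1.03 ± 0.10, Mfge8, which bridges phagocytes and their targets, by 0.79 ± 0.08 and 1.05 ± 0.24, and Apoe by 0.66 ± 0.08 and 0.67 ± 0.14. Mlc1 and Hepacam, which encode partners in an astrocyte membrane complex, rose together. Mlc1 differed by 0.86 ± 0.09 in WT and 1.07 ± 0.19 in HT mice and Hepacam by 0.62 ± 0.08 and 0.66 ± 0.17, in the direction opposite to Aqp4 of the same role group.

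S100b, a calcium-binding protein gene of astrocytes and some oligodendrocytes, rose by 1.45 ± 0.21 in WT (adjusted p = 7.1e-05) and 1.83 ± 0.15 in HT mice (adjusted p = 7.7e-07). Gfap, the intermediate filament gene, did not pass (-0.07 ± 0.09 in WT and 0.14 ± 0.14 in HT mice), with 8165, 8924, 9831, 9161 and 8689 counts in WT-P10 and 6994, 8069, 9737, 9789 and 8354 in WT-Veh. S100b had 3682, 3458, 8248, 5921 and 6917 counts in WT-Veh and 5124, 3882, 6248, 8107 and 3660.1 in WT-Flx. This was the widest spread among the 34 genes in both groups (SD 0.56 and 0.48 on the log2 scale). Its 4 lowest adult values were those of WT-Veh 1, WT-Veh 2, WT-Flx 2 and WT-Flx 5. The same 4 libraries had the lowest mean log2 level of the 9 cerebellar granule neuron markers, 8.78 to 10.7 against 11.4 to 12.4 in the other 16 adult libraries. The summed level of these markers was 12647 to 46121 in WT-Veh, 28615 to 42544 in HT-Veh, 6603 to 45294 in WT-Flx and 30762 to 61735 in HT-Flx, and none of the 9 was at 0 in any library. Their part in the S100b values was not tested.

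**Figure D2:**
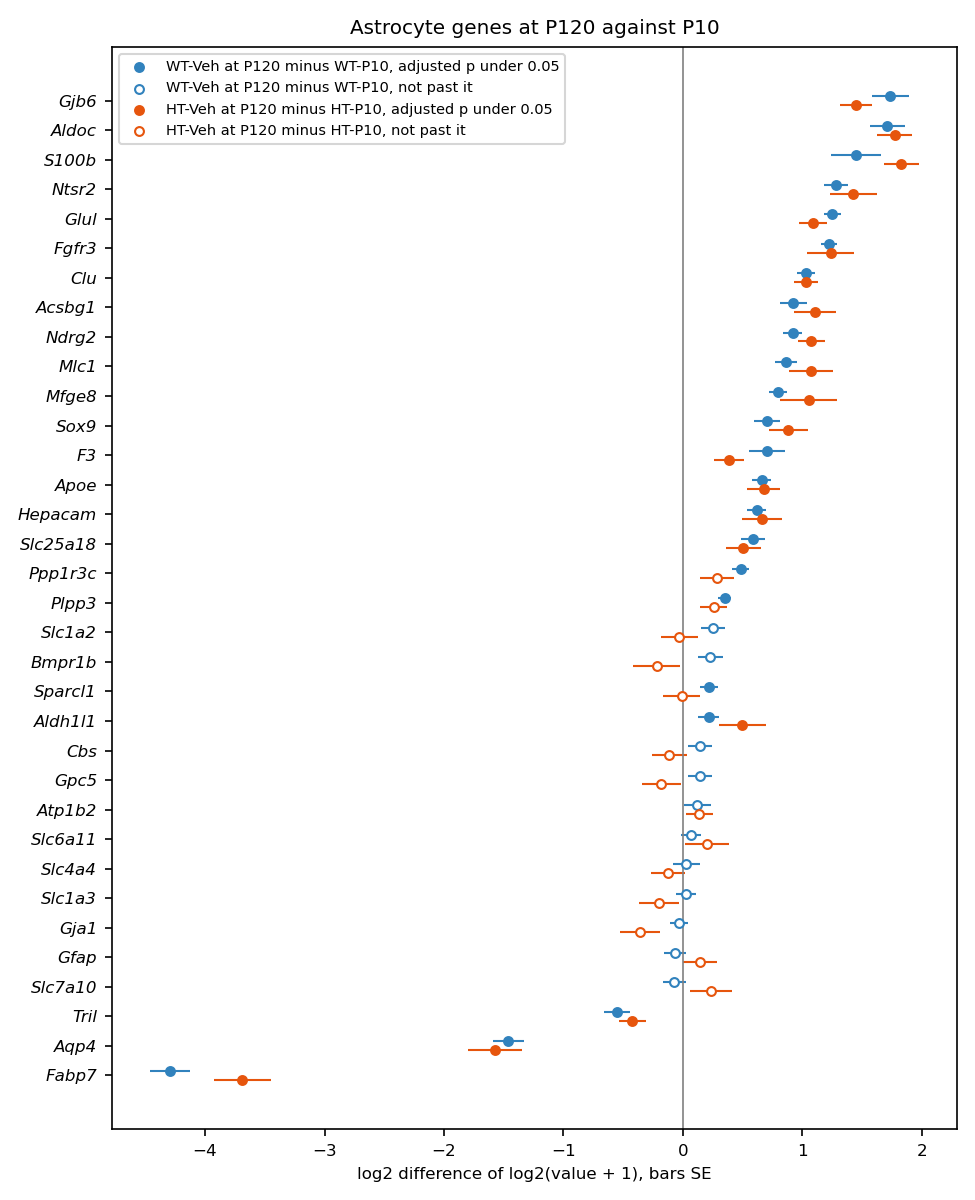
Log2 difference (log2(value + 1) scale, bars SE) of each of the 34 astrocyte genes between P120 vehicle and P10 libraries in WT and HT mice, 5 libraries a group. Fabp7 lies at -4.29 and -3.69, Aqp4 at -1.46 and -1.58, and Gjb6, Aldoc and S100b lie highest, between 1.45 and 1.83.

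Other lists are given for WT mice, to be read against the 28.9% of all genes that were higher and the 29.4% that were lower in this comparison. Of 16 genes of radial glia and immature astrocytes 1 was higher and 8 lower at P120, led by the proliferation genes Mki67 (-4.83 ± 0.24) and Top2a (-4.77 ± 0.27) and by Tnc (-2.38 ± 0.16), which encodes tenascin-C. Of 16 other channel, pump and endfoot genes 4 were higher and 6 lower, the latter including the lactate transporter gene Slc16a1 (-1.51 ± 0.09). Of 16 synapse organizers 4 were higher and 6 lower, with the thrombospondin genes Thbs4 at 2.22 ± 0.18 and Thbs1 at -1.06 ± 0.17. Of 16 transcription factors 3 were higher and 5 lower, with Nfib at -1.24 ± 0.08 and Nfia at -0.84 ± 0.10, and of 32 tested reactive astrocyte genes 14 were higher and 11 lower. Markers of some other cells moved as well. Oligodendrocyte precursor markers fell in 9 of 10 cases, 7 of 12 oligodendrocyte markers rose and 1 fell, 8 of 12 microglia markers rose and 1 fell, and 6 of 8 choroid plexus markers rose and 1 fell. Of 8 genes of Bergmann glia, the astrocytes of the cerebellar cortex, 4 rose and 1 fell, led by Itih3 (2.48 ± 0.15). For neuron markers the mean log2 level was 13.84 in WT-P10 and 13.78 in WT-Veh. In the same order it was 10.15 and 10.02 for endothelial and pericyte markers and 5.78 and 5.85 for ependymal markers. It was 11.42 and 11.35 for cerebellar granule neuron markers and 10.51 and 11.11 for striatal neuron markers. The part of these cells in the astrocyte values was not tested.

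At P10 none of the 34 genes passed between HT and WT mice (limma, adjusted p under 0.05), and 0.0224% of all 17896 genes did. At an unadjusted p under 0.05 there were 11 astrocyte genes, or 32.4%, against 12.6% of all genes. The median log2 difference was 0.02 and the values lay between -0.32 and 0.25. The highest were F3 (0.25 ± 0.07, adjusted p = 0.27) and Bmpr1b (0.22 ± 0.06, adjusted p = 0.29), and the lowest S100b (-0.32 ± 0.10, adjusted p = 0.32) and Fabp7 (-0.25 ± 0.11, adjusted p = 0.38). The groups did not overlap for 3.12% of all genes, and 1.43% of all genes were higher without overlap. Among the 34, the groups did not overlap for 1 gene, the glypican gene Gpc5, named after its values were seen. Its counts were 989, 1008, 1035, 1046 and 1024 in WT-P10 and 1126, 1179, 1180.1, 1126 and 1123 in HT-P10 (0.17 ± 0.04, adjusted p = 0.25).

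At P120 after vehicle, HT-Veh and WT-Veh were compared without the libraries numbered 2 (n = 4 and 4). None of the 34 astrocyte genes passed (limma), nor did any of 17784 genes (0%). No astrocyte gene had an unadjusted p under 0.05, against 1.29% of all genes, and none had groups without overlap, against 1.04%. The median log2 difference was -0.03, and 0.06 with all 5 and 5 libraries, where none passed either. The highest values were those of Fabp7 (0.38 ± 0.29) and Mfge8 (0.22 ± 0.30), and the lowest those of Gja1 (-0.31 ± 0.21) and Bmpr1b (-0.31 ± 0.25), and Mfge8 changed sign to -0.08 without HT-Veh 3. Over all 5 libraries a group, those numbered 2 included, HT-Veh had the widest spread. The median SD of the astrocyte genes on the log2 scale was 0.34 there, 0.21 in WT-Veh, 0.14 in WT-Flx, 0.20 in HT-Flx, 0.12 in HT-P10 and 0.08 in WT-P10. The median SD of all genes was 0.34, 0.22, 0.16, 0.26, 0.14 and 0.11 in the same order. Mlc1 had 10841, 9022, 13116, 6016 and 6784 normalized counts in HT-Veh and Gja1 had 3184, 5668, 4074, 5822 and 6087. HT-Veh 1 and 3 were thus highest for Mlc1 and lowest for Gja1, and HT-Veh 4 and 5 the reverse.

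The age change itself was compared between the genotypes in all 20 untreated and vehicle libraries. No astrocyte gene passed this interaction, nor did any of 17978 genes (0%, and 3.4% at an unadjusted p under 0.05, none of them among the 34). The most extreme values were those of Fabp7 (0.61 ± 0.31) and S100b (0.38 ± 0.28) above 0, and Bmpr1b (-0.45 ± 0.23) and Gja1 (-0.32 ± 0.19) below it.

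Early fluoxetine was compared with vehicle within each genotype. In HT mice (HT-Flx against HT-Veh) none of the 34 genes passed, nor did any of 17676 genes (0%), with 13 astrocyte genes (38.2%) at an unadjusted p under 0.05 against 23.1% of all genes. The extremes were Mlc1 (0.50 ± 0.20, adjusted p = 0.22), Ntsr2 (0.49 ± 0.20), Aqp4 (-0.76 ± 0.34, adjusted p = 0.22) and the bicarbonate cotransporter gene Slc4a4 (-0.48 ± 0.25). The groups did not overlap for Ndrg2, higher in HT-Flx (0.28 ± 0.12) and named after its values were seen. They did not overlap for 1.62% of all genes, and 1.04% of all genes were higher without overlap.

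In WT mice (WT-Flx against WT-Veh) none passed either, nor did any of 17865 genes (0%), and 11 astrocyte genes (32.4%) had an unadjusted p under 0.05 against 25.2% of all genes. The extremes were Fabp7 (0.36 ± 0.17), Aqp4 (0.26 ± 0.20), Fgfr3 (-0.45 ± 0.08, adjusted p = 0.085) and Acsbg1 (-0.36 ± 0.14). The groups did not overlap for 2 genes, Fgfr3 and Ntsr2, both lower in WT-Flx. They did not overlap for 6.41% of all genes, and 4.12% of all genes were lower without overlap. Without WT-Veh 1, 5 astrocyte genes passed as lower in WT-Flx, and without WT-Veh 5, 2 did, against 6.30% and 3.11% of all genes in the same fits. Without the vehicle libraries numbered 2, none passed in either genotype.

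The treated groups differed from each other in most astrocyte genes. Between HT-Flx and WT-Flx 20 were higher and 11 lower in HT-Flx, and Plpp3, Fabp7 and S100b did not pass, but 63.7% of all 17799 genes passed as well, 33.1% higher and 30.5% lower. The 5 and 5 values did not overlap for 15 higher and 9 lower astrocyte genes, and for 48.5% of all genes, 25.6% higher and 22.9% lower. The directions cut across the roles. Both gap junction genes were lower, both plasma membrane glutamate transporter genes were lower while the other 4 amino acid handling genes were higher, and of the endfoot genes Mlc1, Hepacam and Atp1b2 were higher while Aqp4 and Slc4a4 were lower.

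Mlc1 had the highest value. Its counts were 7172, 5719, 6063, 7017 and 6064 in WT-Flx and 15308, 12595, 11529, 11706 and 11253 in HT-Flx, without overlap (0.96 ± 0.10, adjusted p = 3.4e-05). It was followed by Acsbg1 (0.95 ± 0.12), Ntsr2 (0.92 ± 0.11), Fgfr3 (0.91 ± 0.09), Slc6a11 (0.89 ± 0.09), Aldh1l1 (0.87 ± 0.10), Mfge8 (0.85 ± 0.17), Hepacam (0.84 ± 0.10), Slc7a10 (0.78 ± 0.12) and Aldoc (0.71 ± 0.15). Gfap had 8190.3, 6272, 7625, 9517 and 6849.8 counts in WT-Flx and 12899, 12765, 9485, 13457 and 13623 in HT-Flx (0.70 ± 0.13, adjusted p = 0.00047). HT-Flx 3 lay within the WT-Flx range and the other 4 above it.

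Aqp4 had the lowest value, with 4296, 3432, 4996, 6694 and 3225 counts in WT-Flx and 1095, 2564, 1218, 3449 and 2479 in HT-Flx (-1.15 ± 0.31, adjusted p = 0.0056), and its ranges overlapped. Gja1 had 5997, 6497, 6169.9, 7271 and 5937 counts in WT-Flx and 2705, 3527, 2876, 4602 and 4338 in HT-Flx, without overlap (-0.85 ± 0.14, adjusted p = 0.00026). Slc1a2 had 71235, 78944, 66762, 64259 and 67776 counts in WT-Flx and 32519, 48219, 44110.5, 57166 and 50008 in HT-Flx, again without overlap (-0.61 ± 0.13, adjusted p = 0.0015). The other lower genes were Bmpr1b (-0.88 ± 0.16), Gpc5 (-0.83 ± 0.11), Slc1a3 (-0.75 ± 0.15), Sparcl1 (-0.73 ± 0.15), Slc4a4 (-0.66 ± 0.25), Gjb6 (-0.58 ± 0.13), F3 (-0.40 ± 0.11) and the glycogen-targeting gene Ppp1r3c (-0.51 ± 0.13), whose sign turned under the GC and length correction (0.02). Slc4a4 no longer passed without any one of WT-Flx 1, 3 and 4 and HT-Flx 1 and 3, with values of -0.44 to -0.64.

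These directions went with the GC content of the transcripts. GC content over all exons, pooled over all annotated transcripts of a gene so that shared exons count repeatedly, was 42% (Fabp7) to 60.0% (Apoe) among the 34 genes. Of these, 14 lay below and 20 above the median of genes with a mean of at least 10 over all libraries. Of the 14 GC-poor genes 11 were lower and 1 (Sox9) higher in HT-Flx, and of the 20 GC-rich genes 19 were higher and none lower. Of all GC-poor genes 57.5% were lower and 6.13% higher, and of all GC-rich genes 59.7% were higher and 3.93% lower. Pearson's r between GC content and the log2 difference was 0.82 across the 34 genes and 0.75 across all genes, which share the same 10 libraries and are not independent replicates. Exons held less GC than the coding sequence in 32 of the 34 genes. The coding sequence of Gja1, lower in HT-Flx, held 53.6% GC, as did that of Ndrg2, higher in HT-Flx (0.49 ± 0.08), whereas over all exons Ndrg2 held 53.4% and Gja1 was on the GC-poor side.

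**Figure D3:**
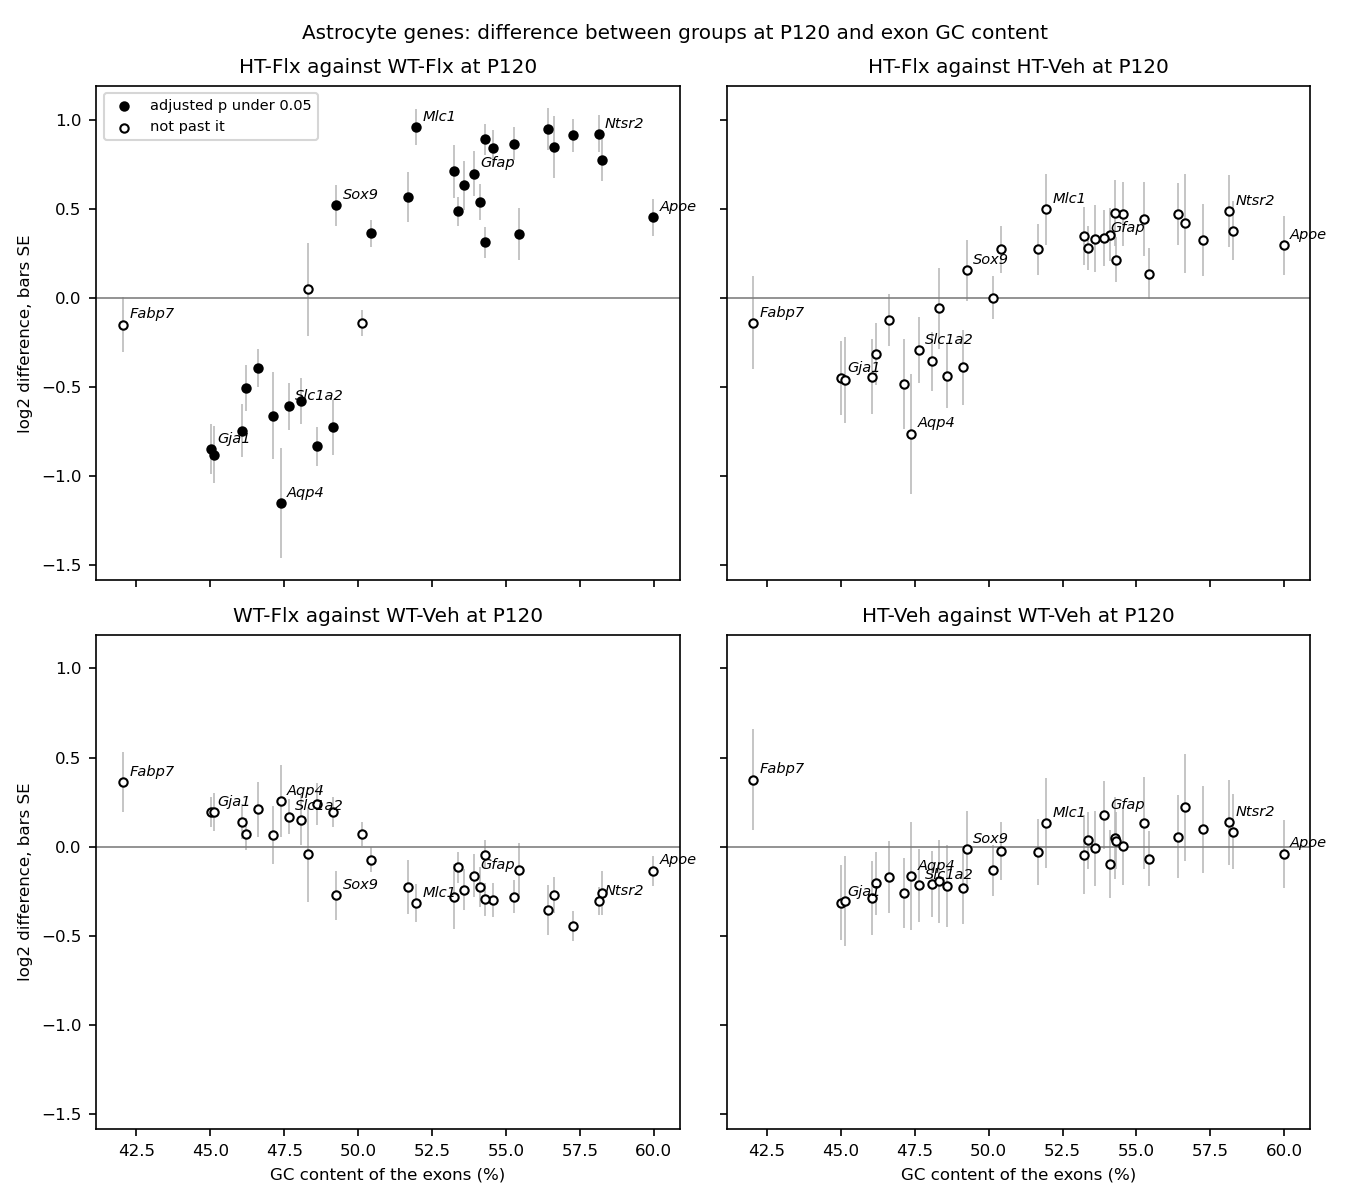
Log2 difference (bars SE) of the 34 astrocyte genes against the GC content of their exons, in percent, in comparisons at P120. Between HT-Flx and WT-Flx the GC-poor genes lie mostly below 0 and the GC-rich ones mostly above it (r = 0.82), with r = 0.81 for HT-Flx against HT-Veh and r = -0.83 for WT-Flx against WT-Veh.

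An offset of the same kind was present over all genes in each library. It was measured as the mean log2 level of the most GC-rich 20% of genes minus that of the most GC-poor 20%, relative to the mean of libraries of the same age. It was 0.52 to 1.26 in the 5 HT-Flx libraries, -0.73 to -0.57 in the 5 WT-Flx libraries, -0.48 to 0.36 in WT-Veh and -0.71 to 0.76 in HT-Veh, where libraries 1, 2 and 3 were above 0 and libraries 4 and 5 below it. At P10 it was -0.07 to 0.08 in 9 libraries and -0.33 in HT-P10 1. For the 34 genes, the mean of the GC-rich minus that of the GC-poor genes was 0.38 to 1.16 in HT-Flx and -0.59 to -0.40 in WT-Flx. In the treated groups, genotype and this offset cannot be told apart. The mean log2 level of the cerebellar granule neuron markers also differed, at 8.78 to 12.1 in WT-Flx and 10.1 to 12.1 in WT-Veh. It was 11.4 to 11.9 in HT-Veh and 11.4 to 12.4 in HT-Flx. The part of cerebellar content in the differences between the adult groups was not tested.

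**Figure D4:**
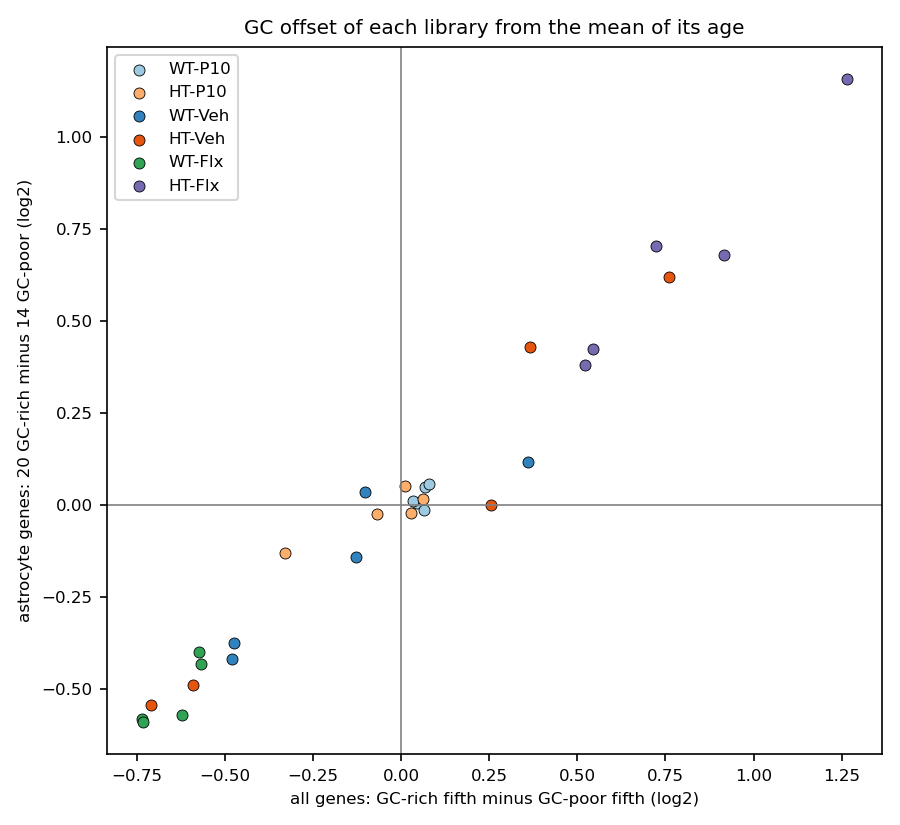
Each point is 1 of the 30 libraries. The x axis gives the log2 offset between the GC-rich and GC-poor 20% of all genes and the y axis that between the 20 GC-rich and 14 GC-poor astrocyte genes, both relative to the mean of the age. All HT-Flx libraries lie at 0.52 or above on the x axis and all WT-Flx libraries at -0.57 or below.

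Each library's mean deviation in bins of GC content and transcript length was then subtracted, an alternative chosen after seeing the data. Under it 13 of the 34 astrocyte genes were higher and 7 lower in HT-Flx than in WT-Flx, with 20.1% of all genes higher and 15.6% lower. Among those that kept their sign and passed were Mlc1 (0.88, adjusted p = 0.00014), Sox9 (0.71, adjusted p = 0.0012), Aqp4 (-0.83, adjusted p = 0.040), Gpc5 (-0.77, adjusted p = 0.00038), Sparcl1 (-0.66, adjusted p = 0.0027) and Gja1 (-0.30, adjusted p = 0.020). Genes that kept their sign but no longer passed were Slc1a2 (-0.24, adjusted p = 0.067), Slc1a3 (-0.29, adjusted p = 0.055), Bmpr1b (-0.28, adjusted p = 0.057), Gfap (0.23, adjusted p = 0.16), Mfge8 (0.30, adjusted p = 0.11), Slc7a10 (0.09, adjusted p = 0.50), Cbs (0.07), Slc4a4 (-0.22) and F3 (-0.18). Apoe turned from 0.45 ± 0.10 (adjusted p = 0.0020) to -0.20 (adjusted p = 0.037), and the sign also turned for Clu (0.31 to -0.08), Tril (0.36 to -0.09), Ppp1r3c (-0.51 to 0.02) and Fabp7 (-0.15 to 0.25), none of which passed afterwards. The correction did not remove the relation to GC content among the 34 genes. Pearson's r was 0.82 before it and 0.41 after it. The median corrected difference was -0.26 for the 14 GC-poor and 0.29 for the 20 GC-rich genes.

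The age differences were moved less by the same correction. Fabp7 was at -4.06 in WT and -3.43 in HT mice, Aqp4 at -1.44 and -1.44, and Gjb6 at 1.85 and 1.57. Under it 22 astrocyte genes were higher and 5 lower in WT, and 18 higher and 5 lower in HT mice, against 31.5% of all genes higher and 27.96% lower in WT, and 29.4% and 26.9% in HT mice. The genes added on the lower side were Slc7a10 (-0.52 in WT and -0.39 in HT mice), Gfap in WT (-0.24) and Cbs in HT mice (-0.33), while Aldh1l1 no longer passed in either genotype (0.11 and 0.29).

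**Figure D5:**
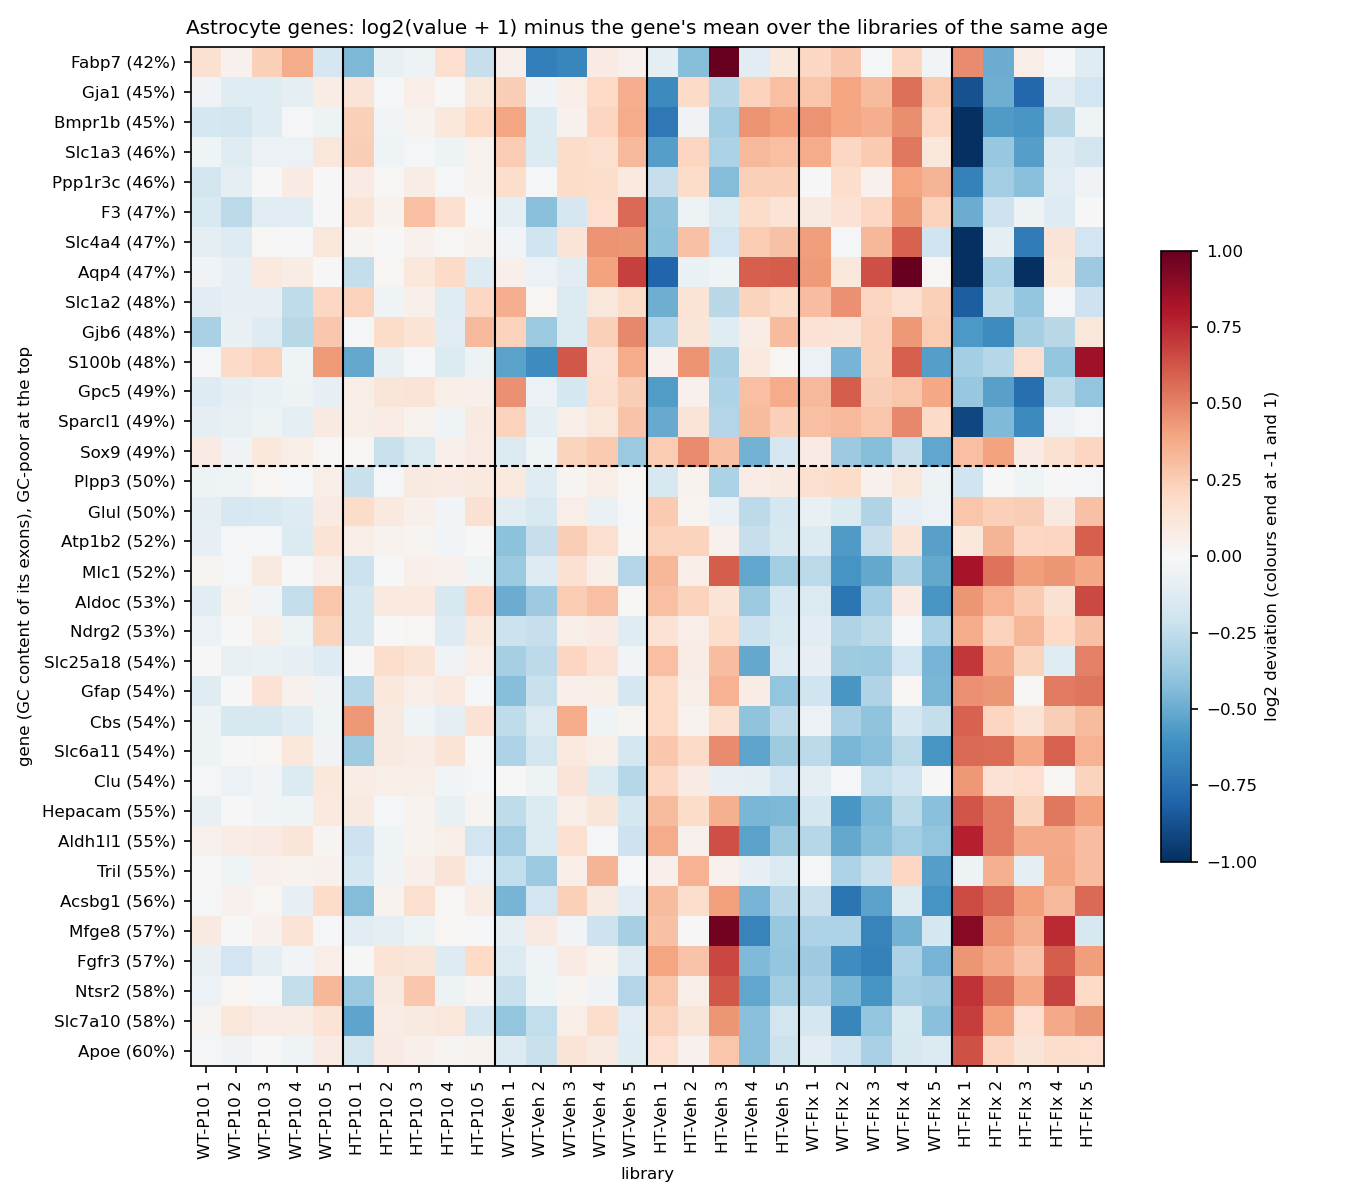
Deviation of log2(value + 1) of the 34 astrocyte genes, ordered by exon GC content, from each gene's mean over libraries of the same age, in all 30 libraries. Most of the 14 GC-poor and of the 20 GC-rich genes deviate in opposite directions in HT-Flx and in the reverse directions in WT-Flx, with exceptions such as the GC-poor Sox9, and HT-Veh 1 and 3 differ from HT-Veh 4 and 5.

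HT-Flx was also compared with WT-Veh, that is treated mutants with vehicle WT mice, which shares the HT-Flx libraries with the comparison above. Here 14 astrocyte genes were higher and 8 lower, and 43.3% of all 17681 genes passed, 23.4% higher and 19.9% lower. The values did not overlap for 9 higher and 3 lower astrocyte genes, and for 20.8% of all genes, 13.8% higher and 6.98% lower. All 14 higher genes were GC-rich and all 8 lower ones GC-poor. The highest were Mlc1 (0.64 ± 0.12), Ntsr2 (0.62 ± 0.11), Slc6a11 (0.59 ± 0.10), Acsbg1 (0.59 ± 0.13) and Aldh1l1 (0.59 ± 0.12), and the lowest Aqp4 (-0.90 ± 0.29), Bmpr1b (-0.68 ± 0.18), Gja1 (-0.65 ± 0.15) and Slc1a3 (-0.60 ± 0.15). Aqp4 no longer passed without any one of WT-Veh 4 and 5 and HT-Flx 1 and 3 (-0.69 to -0.84), and without WT-Veh 5 or HT-Flx 3 the lower genes numbered 5 (12.7% and 13.8% of all genes). Without WT-Veh 2, 12 genes were higher and 10 lower, against 20.6% and 15.9% of all genes. After the GC and length correction 2 higher genes, Mlc1 and Slc6a11, and 1 lower gene, Gpc5, passed, against 5.59% and 3.80% of all genes, which is near the share among the 34.

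The interaction of genotype and fluoxetine at P120, which is the fluoxetine difference in HT mice minus that in WT mice, passed above 0 in 10 astrocyte genes and below 0 in 2, Gpc5 (-0.68 ± 0.22, adjusted p = 0.037) and Gja1 (-0.64 ± 0.24, adjusted p = 0.049), while 20 of the 34 values were above 0 whether or not they passed and 27.3% of all 17796 genes passed, 15.8% above and 11.5% below 0. The largest values were those of Acsbg1 (0.83 ± 0.23), Mlc1 (0.82 ± 0.24) and Ntsr2 (0.79 ± 0.23, adjusted p = 0.035). Both counts were 0 without the vehicle libraries numbered 2, and 0 after the GC and length correction. Leaving out 1 library at a time gave 0 to 16 genes above 0, with 16 without HT-Veh 1 (22.6% of all genes above and 20.5% below 0 in that fit) and 0 without any one of WT-Veh 2, 3 and 4, HT-Veh 4 and 5, WT-Flx 2 and 3 and HT-Flx 1. It gave 0 to 8 genes below 0, with 8 without HT-Veh 1, 5 without HT-Veh 3, HT-Flx 4 or HT-Flx 5, 1 without HT-Veh 2 or WT-Flx 4, and 0 without any one of 12 others, namely those that left 0 above it and WT-Flx 1 and 5 and HT-Flx 2 and 3.

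Among the 20 adult libraries, once group means were removed, pairs of GC-poor astrocyte genes had a median correlation of 0.58 and pairs of GC-rich genes 0.65, whereas pairs with 1 gene of each kind had -0.35. The closest pairs were Mlc1 with Aldh1l1 (0.98) and Gja1 with Sparcl1 (0.97), and the most opposed pair was Aqp4 with Clu (-0.82). At P10 the medians over 10 libraries were 0.20, 0.30 and 0.11. All these genes share the libraries and their GC offset, so the values are descriptions.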

How the data were processed

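RNA-seq of whole brain from 30 mice (6 groups of 5) was used. Per the submitters' processing notes, the authors used Salmon 1.1.0, GRCm38, R 4.1.1 and DESeq2 1.30.1, and the deposited values are a signal, read counts per gene normalized for library size. The median ratio to the geometric mean over libraries was 1.01 in all 30, so P10 and P120 share one scale. They were not whole numbers and no common step was found, so whole reads and depth could not be recovered, and log-scale tests were used in place of a count test.

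Groups came from the labels. Differences were tested with limma 3.58.1 (R 4.3.3; moderated, with an intensity trend) on log2(value + 1), which understates changes of low genes, over genes with a mean of at least 10 in the compared libraries, with Benjamini-Hochberg adjustment over all genes tested and a threshold of 0.05. Each ± is an SE for a log2 difference and an SD for a level. HT-Veh and WT-Veh were compared without replicate 2, the libraries the study lists in its tabulated result for this comparison, and with all libraries as an alternative. Labels give no litter or extraction batch. P values set a group difference against the spread of libraries within groups. They treat each mouse as independent, although the drug was given to dams. Members and lists were chosen with earlier results of these data known. Genes named are the 34 by counts and ranges, up to 10 past the threshold per direction, the 2 most extreme where fewer than 3 passed, and further members by role. GC content, length and coordinates came from a GRCm38 annotation (99.9% of identifiers had a symbol) and promoters from RefSeq. Alternatives were the pseudocount (5, 0.1), the filter (none, 100), recomputed size factors, no trend, a replicate block, all 5 libraries, omission of each library and, chosen after seeing the data, subtraction of library means in 100 bins of GC content and transcript length. Scripts were tested on simulated data.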

Additional observations from a re-analysis of the deposited data

Results flagged for a closer look

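In 204 tests of the highest or lowest library within a group of 5, 10 astrocyte values stood apart from the other 4. Chance flags about 1 in 20 groups, so the total is about as large as chance alone would give. HT-P10 1 gave 5 of them, with the highest Slc1a3 (21038 normalized counts) and the lowest Slc6a11 (10574), Acsbg1 (3049.7), Apoe (32629) and S100b (1224). HT-Flx 1 had the lowest Plpp3 (5869) and the highest Apoe (94306), HT-Flx 4 the lowest Glul (56279.5), HT-Flx 3 the lowest Gfap (9485) and WT-P10 5 the highest Sparcl1 (48264). HT-P10 1 was also the P10 library farthest from the others in its GC offset (-0.33), and HT-Flx 1 had the largest offset of all libraries (1.26). The part of the offset in these values was not tested.

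The fluoxetine difference at P120 differed between HT and WT mice (limma interaction, log2 scale, adjusted p 0.035 to 0.049) in Mlc1 (0.82), Hepacam (0.77), Slc6a11 (0.77), Slc7a10 (0.64), Aldh1l1 (0.72), Acsbg1 (0.83), Cbs (0.58), Ndrg2 (0.40), Fgfr3 (0.77) and Ntsr2 (0.79), all GC-rich, and in Gja1 (-0.64) and Gpc5 (-0.68), both GC-poor. None of the 12 passed after the GC and length correction or without the vehicle libraries numbered 2.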

How the results depend on the processing

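The main limits are 5 libraries a group, unknown depth, vehicle libraries numbered 2 whose Arid1b level goes against their labels, and a GC offset that separates the treated groups. A further limit is the low level of cerebellar granule neuron markers in WT-Veh 1, WT-Veh 2, WT-Flx 2 and WT-Flx 5, all labelled WT. Its part in the comparisons of adult groups was not tested.

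Under the GC and length correction, and also with the replicate block added to it, the median difference of the 34 genes was 0.0478 for HT-Flx against HT-Veh, 0.13 for HT-Flx against WT-Flx, 0.0668 for HT-Flx against WT-Veh and 0.0693 for the interaction of genotype and fluoxetine. The higher and lower genes numbered 13 and 7 for HT-Flx against WT-Flx (8 and 6 with the block), 2 and 1 for HT-Flx against WT-Veh (2 and 3 with the block) and 0 and 0 for the interaction, and 5 were lower at P120 in each genotype. Ppp1r3c turned to 0.0229 for HT-Flx against WT-Flx in both. Without the correction, the replicate block gave 5 lower genes for HT-Flx against HT-Veh and 5 for the interaction, against 7.31% and 14.5% of all genes. The interaction had 1 lower gene with no filter and 1 with no intensity trend, and 0 higher and 0 lower without the vehicle libraries numbered 2. The cause of these changes was not tested.

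Same-numbered libraries had mean correlations of -0.05 to 0.18. For HT against WT at P10 the mean was 0.04, against -0.01 for other pairs, and 4 of 5 libraries correlated best with their own number. For HT-Flx against HT-Veh it was 0.18 against -0.04, with 2 of 5, and in the other comparisons 0 to 3 libraries did so. Since no comparison had every same-numbered pair above 0.1, the numbers were not taken to pair the samples and the block is given only here.

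Leaving out 1 library at a time gave 0 lower to 5 lower genes for WT-Flx against WT-Veh, 5 to 10 lower for HT-Flx against WT-Veh, and 0 to 16 higher and 0 to 8 lower for the interaction, and Mfge8 for HT-Veh against WT-Veh ranged from -0.0831 (without HT-Veh 3) to 0.46. Of all summary values under all alternatives, 285 were classed as the same, 16 as weaker, 6 as stronger and 8 as moved. Being classed as the same did not require an unchanged sign. With 1 library left out, the median difference of the astrocyte genes for HT-Veh against WT-Veh ranged from -0.12 to 0.047. For the interaction of genotype and age it ranged from -0.036 to 0.098, and all these omissions were classed as the same. For single named genes the counts were 927 the same, 82 weaker, 3 stronger and 2 reversed.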
